A study of Mus musculus with 2 samples.

Results

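In mouse, the mature microRNAs let-7a, let-7c and let-7f are each made from 2 genes at different places in the genome. The 6 genes are Mirlet7a-1, Mirlet7a-2, Mirlet7c-1, Mirlet7c-2, Mirlet7f-1 and Mirlet7f-2, and they were found by symbol among the 2202 microRNA genes counted in each heart library. Short RNA had been sequenced from the heart of female B6CASTF1/J mice aged 2 months, the offspring of a C57BL/6J and a CAST/EiJ parent. There is 1 group with 2 libraries, numbered as biological replicates 1 and 2, and no treatment or other condition to compare. The labels give different female numbers but 1 donor label for both, so it is not certain that the libraries came from 2 animals, and every test below compares 2 libraries and no conditions.

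A let-7 microRNA is cut from a hairpin precursor, first by DROSHA in the nucleus and then by DICER in the cytoplasm. The strand from the 5′ side (the 5p arm) is the one usually loaded into Argonaute, where its seed pairs with target messages, and the 3p arm is usually discarded. The family rises as cells differentiate and restrains growth and cell cycle genes such as Hmga2, and in embryonic cells the RNA-binding protein LIN28 blocks the maturation of its precursors. When the same 5p arm comes from more than 1 gene, a read of that arm alone cannot say which gene it came from.

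The mature 5p arms are shown first, because they are what the copies of a pair have in common. Sequences are from RefSeq (GRCm38.p6), read 5′ to 3′, and capitals mark the seed (bases 2 to 8).
let-7a-5p: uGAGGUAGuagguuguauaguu
let-7c-5p: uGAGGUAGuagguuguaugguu
let-7f-5p: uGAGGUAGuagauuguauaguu
All 3 carry the seed GAGGUAG. Counted from 1 at the 5′ end of let-7a-5p, let-7c-5p differs by A19G and let-7f-5p by G12A. Each 5p arm was found in exactly 2 places among the annotated mouse hairpins, the copies of its own pair.

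The 3p arms are shown because they are where the copies of a pair can be told apart, with the same capitals.
let-7a-1-3p: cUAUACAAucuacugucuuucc
let-7a-2-3p: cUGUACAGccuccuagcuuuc
let-7c-1-3p: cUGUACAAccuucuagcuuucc
let-7c-2-3p: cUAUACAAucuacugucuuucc
let-7f-1-3p: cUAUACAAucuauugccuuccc
let-7f-2-3p: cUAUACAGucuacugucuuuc
Within the let-7a pair the 3p arms differed at 6 of 21 bases compared, within the let-7c pair at 5 of 22 and within the let-7f pair at 4 of 21. The 3p arms of Mirlet7a-1 and Mirlet7c-2, genes of different pairs, were identical over all 22 bases. The 3p arm of Mirlet7f-2 differed from that of Mirlet7a-1 by A8G alone over 21 bases. Mirlet7a-1 and Mirlet7c-2 therefore have no arm of their own, and the other 4 genes each have a 3p arm found in 1 place.

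The whole hairpins are shown next, as annotated, with capitals for every base that lies in a window of 20 bases found at another annotated hairpin.
Mirlet7a-1: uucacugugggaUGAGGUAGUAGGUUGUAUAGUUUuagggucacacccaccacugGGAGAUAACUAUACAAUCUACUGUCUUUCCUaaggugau
Mirlet7a-2: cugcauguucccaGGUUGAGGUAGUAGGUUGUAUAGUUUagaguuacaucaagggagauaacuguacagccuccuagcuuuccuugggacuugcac
Mirlet7c-1: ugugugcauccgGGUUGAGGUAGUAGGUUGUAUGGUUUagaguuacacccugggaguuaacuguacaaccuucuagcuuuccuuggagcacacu
Mirlet7c-2: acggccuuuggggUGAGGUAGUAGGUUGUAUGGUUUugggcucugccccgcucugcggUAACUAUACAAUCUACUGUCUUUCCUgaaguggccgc
Mirlet7f-1: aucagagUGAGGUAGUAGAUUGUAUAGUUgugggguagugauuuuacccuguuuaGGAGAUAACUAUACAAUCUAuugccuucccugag
Mirlet7f-2: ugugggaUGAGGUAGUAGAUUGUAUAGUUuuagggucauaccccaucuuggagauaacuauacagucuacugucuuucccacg
Outside the 5p arm the copies diverged: aligned over their whole length, the hairpins were 67.6% identical in the let-7a pair, 64.3% in the let-7c pair and 69.7% in the let-7f pair. The copies of a pair differed at the base just before the 5p arm in all 3 pairs. After it they stayed the same for 1 base in the let-7a and let-7c pairs and for 0 bases in the let-7f pair. A read from the first base of the 5p arm thus had to match over 24 bases to have 1 place among the hairpins for let-7a and let-7c, and over 23 bases for let-7f. From the first base of the 3p arm, 24 bases were needed for Mirlet7a-1 and Mirlet7c-2, against 9 for Mirlet7f-2, 10 for Mirlet7a-2 and Mirlet7c-1 and 13 for Mirlet7f-1.

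**Figure D1:**
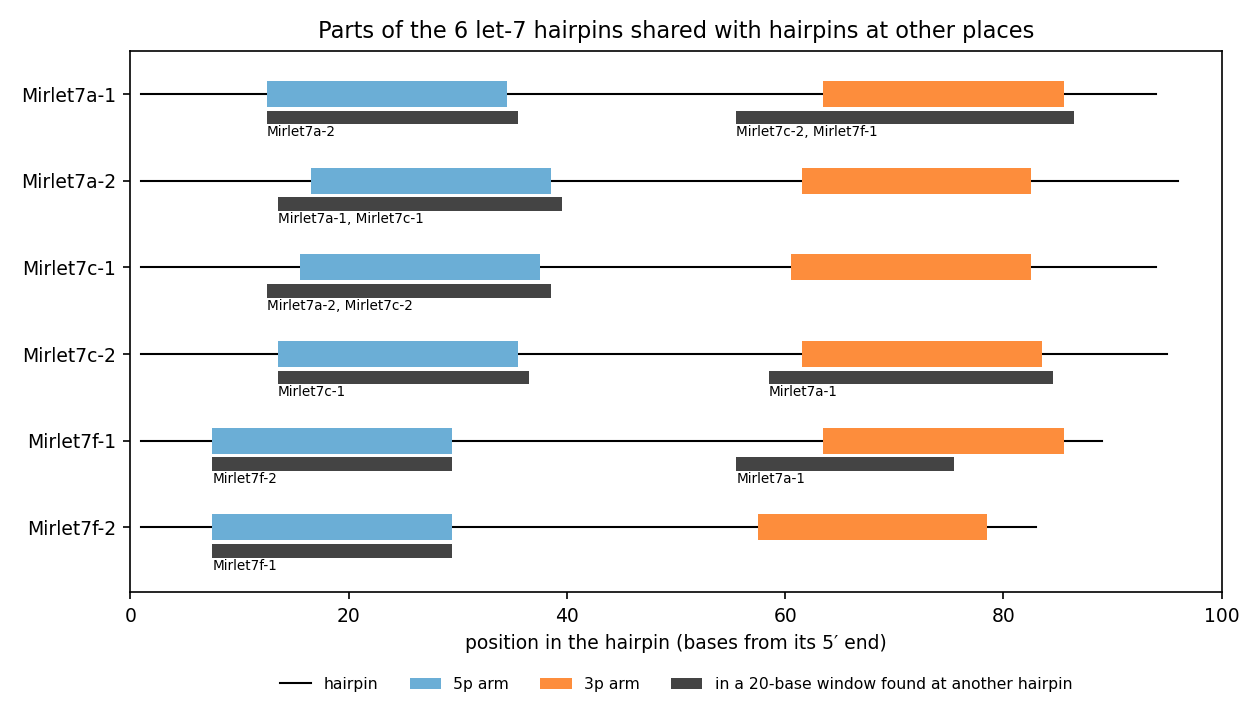
Maps of the 6 let-7 hairpins, with position in bases from the 5′ end of each hairpin on the horizontal axis, the 5p arm in blue and the 3p arm in orange. Dark bars mark bases in a 20-base window that occurs at another hairpin, named under the bar; in Mirlet7a-1 and Mirlet7c-2 they cover both arms, in Mirlet7a-2, Mirlet7c-1 and Mirlet7f-2 the 5p arm alone, and in Mirlet7f-1 the 5p arm and part of the 3p arm.

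Of the 20-base windows along each hairpin, 84.0% had 1 place in Mirlet7a-1 and 85.5% in Mirlet7c-2, against 92.2% in Mirlet7a-2, 92.0% in Mirlet7c-1, 94.3% in Mirlet7f-1 and 95.3% in Mirlet7f-2. Places were counted among annotated hairpins on either strand and not over the whole genome. Only exact matches in the reference sequence were counted, and bases at which a parent of these mice may differ from it were not examined. All 8 let-7 genes with 1 locus had 1 place for every window of 20 bases; at 18 bases Mirlet7b, Mirlet7g and Mirlet7i each had 2 windows at several places. The hairpins were also searched on their own strand for GGAG, letters that LIN28 recognises in the loop of let-7 precursors. GGAG stood between the arms, 4 bases before the 3p arm, in Mirlet7a-1, Mirlet7a-2, Mirlet7c-1, Mirlet7f-1 and Mirlet7f-2, and nowhere in the Mirlet7c-2 hairpin. Of the 445 annotated hairpins of 83 to 96 bases, the members' range of lengths, 32.8% hold these letters anywhere. Among let-7 genes with 1 locus, Mirlet7d, Mirlet7e, Mirlet7g, Mirlet7i, Mirlet7j and Mirlet7k also held them somewhere in the hairpin. Mirlet7b and Mir98 did not, so neither a match anywhere in the hairpin nor its absence is particular to the members. Whether a match stood between the arms was not worked out for the genes with 1 locus. A match is only a match of letters.

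The genes lie in 5 stretches of the genome (mm10, GENCODE M21). Mirlet7a-1 (ENSMUSG00000065421.3; chr13:48538179-48538272) and Mirlet7f-1 (ENSMUSG00000105621.1; chr13:48537829-48537917) lie on the minus strand, 261 bases apart, in exons of the long noncoding RNA gene 6720427I07Rik. Mirlet7a-2 (ENSMUSG00000092770.1; chr9:41536716-41536811) lies on the plus strand in introns of 3110039I08Rik and Gm49317. Mirlet7c-1 (ENSMUSG00000065557.3; chr16:77599657-77599750) lies on the plus strand in an intron of the noncoding gene Mir99ahg, and an intron of Gm11146 covers it on the opposite strand. Mirlet7c-2 (ENSMUSG00000065608.1; chr15:85706603-85706697) lies on the plus strand in an exon of the noncoding gene Lncppara. Mirlet7f-2 (ENSMUSG00000065602.1; chrX:151912346-151912428) lies on the plus strand in an intron of Huwe1, which encodes a ubiquitin ligase.

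The sum of own-strand counts over all microRNA genes was 2424441 in replicate 1 and 2770301 in replicate 2, and levels are given as counts scaled to this sum (CPM). Reads that mapped to several places made up 49.5% and 42.7% of the libraries and were counted for no gene. A member's count therefore does not give the amount of mature let-7a, let-7c or let-7f in the heart. It gives the reads that could be placed on 1 copy, and the tables do not say from which arm they came. The heart muscle markers Mir208a (1542 and 5865 CPM) and Mir499 (4354 and 2641 CPM) were present, and Mir208b lay lower (84.1 and 39.3 CPM). Markers of other tissues and cells were also present. Highest in mean CPM were Mir126a of endothelium (79461), the erythroid Mir451a (47322) and Mir143 of smooth muscle (46119). The erythroid Mir144 stood at 4410 and Mir145a of smooth muscle at 1475 mean CPM. Lower were Mir206 of skeletal muscle at 215, the epithelial Mir200c at 214 and Mir141 at 12.7, and Mir122 of liver at 28.9 mean CPM. The neuron markers Mir124a-1, Mir124a-2 and Mir124a-3 had 0 counts in both libraries, which allows up to 1.24 CPM. Each of those 3 is also 1 of several copies. Intervals below are 95% exact intervals that treat each read as independent, and they cover counting error only. Reads without molecular identifiers may be copies of 1 molecule, and then these intervals are too narrow and the p-values too small.

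All 6 duplicated let-7 genes reached 10 counts in both libraries, the minimum set for a gene to be called detected. Of all 2202 genes 306 (13.9%) did, and among the 132 other genes whose symbols number at least 2 copies 33 did (25%). Of the 8 let-7 genes with 1 locus 7 did (87.5%), so detection is not particular to the duplicated genes. The 6 genes together held 26762 counts in replicate 1, or 1.10% of all microRNA counts (interval 1.09 to 1.12), and 23860 in replicate 2, or 0.861% (0.850 to 0.872), with a mean of 0.983% ± 0.172 (SD, n = 2). Mirlet7f-2 alone made up 71.7% of the members' counts in replicate 1 and 67.7% in replicate 2, and without it the other 5 genes held a mean of 0.296%. The level of the group is thus mainly that of 1 gene.

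Mirlet7f-2, the copy in Huwe1, had 19182 counts (7912 CPM) in replicate 1 and 16142 (5827 CPM) in replicate 2, a mean of 6869 ± 1474 CPM. It ranked 24th of 2202 genes by mean CPM. Mirlet7c-2 followed with 3561 counts (1469 CPM) and 3302 (1192 CPM). Mirlet7a-1 had 1794 counts (740 CPM) and 1868 (674 CPM). For these 3 genes the lower library of one lay above the higher library of the next. Mirlet7c-1 had 1075 counts (443 CPM) and 1157 (418 CPM), below Mirlet7a-1 and above the last pair in both libraries. Mirlet7a-2 had 556 counts (229 CPM) and 875 (316 CPM), and Mirlet7f-1, its neighbour in the order, had 594 counts (245 CPM) and 516 (186 CPM). These last 2 genes overlapped and changed places between the libraries, so their order does not hold beyond the spread. Dividing CPM by the length of the hairpin, 83 to 96 bases, left the order the same in each library.

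**Figure D2:**
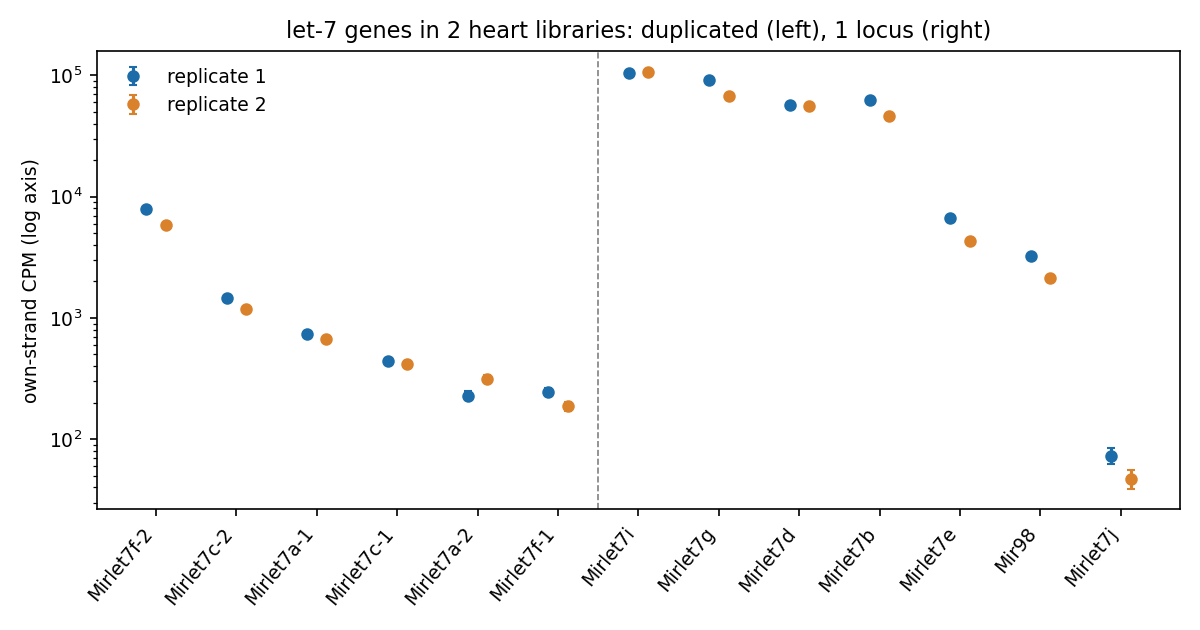
Own-strand CPM (log axis) of the 6 duplicated let-7 genes, left of the dashed line, and of the 7 detected let-7 genes with 1 locus, right of it. Each point is 1 library and bars are 95% exact counting intervals; Mirlet7f-2 is the highest duplicated gene and Mirlet7a-2 and Mirlet7f-1 swap places between libraries.

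Let-7 genes with 1 locus, whose 5p arm can be placed from its own letters, give the setting for these levels. The 6 members held 3.27% of all let-7 family counts in replicate 1 (interval 3.23 to 3.31) and 2.95% in replicate 2 (2.91 to 2.98), and the 8 genes with 1 locus held the rest. Mirlet7i, Mirlet7g, Mirlet7d and Mirlet7b stood at 54867 to 105694 mean CPM, above every member in both libraries. Mirlet7f-2 lay above Mirlet7e (6729 and 4338 CPM) within each library, though the ranges of these 2 genes overlapped across libraries, and above Mir98 (3227 and 2118 CPM). The other 5 members lay below Mir98 in both libraries and above Mirlet7j (73.0 and 46.9 CPM), and Mirlet7k was not detected (1 and 0 counts). The seed of Mirlet7j, GAGGUAU, is not the one the members carry. The reads that mapped to several places came to 149 for each count of a member in replicate 1 and 143 in replicate 2; how many of them were let-7 reads was not tested.

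Over all genes with arms in RefSeq, every annotated arm of 50 genes was also found at another hairpin, and 5 of these genes were detected (10%). The 2 highest of the 5 were Mirlet7c-2 and Mirlet7a-1, at 1330 ± 196 and 707 ± 46.4 mean CPM, and the next, Mir3074-1, stood at 25.5 CPM. Of 62 genes with some arms at another hairpin, the class of the other 4 members, 35 were detected (56.5%), and of 906 genes with none 235 were (25.9%). RefSeq lists let-7a-5p under Mirlet7a-1 alone, so it was added by hand for Mirlet7a-2. No other gene had an arm added in this way, so the classes do not follow 1 rule for all genes. Among the detected genes the median was 25.5 CPM with every arm at another hairpin, 101 with some arms and 84.3 with none. What these classes have to do with the counts was not tested.

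Because the copies of a pair share a library, the split between them needs no scaling. In the let-7f pair Mirlet7f-2 took 97.0% of the counts in replicate 1 (interval 96.7 to 97.2) and 96.9% in replicate 2 (96.6 to 97.2), which is 32.3 and 31.3 counts for each count of Mirlet7f-1. The split in this pair was the most uneven of the 3 and did not differ between the libraries beyond counting error (Fisher's exact test, two-sided, adjusted over 3 pairs, p = 0.603). In the let-7c pair Mirlet7c-2 took 76.8% (75.6 to 78.0) and 74.1% (72.7 to 75.3). This was a difference of 1.16-fold in the ratio of the copies (same exact test, adjusted p = 0.0035). In the let-7a pair Mirlet7a-1 took 76.3% (74.6 to 78.0) and 68.1% (66.3 to 69.8), so the ratio of the copies was 1.51-fold smaller in replicate 2 (same exact test, adjusted p = 1.8e-10). The copy with more counts was the same in both libraries in all 3 pairs. In the let-7a and let-7c pairs it was the copy whose 3p arm is also found at another hairpin. In the let-7f pair neither 3p arm is found whole at another hairpin. After the mature arm that the copies share, the first base to differ was U in the copy with more counts, in all 3 pairs. The other copy had A there in the let-7a and let-7c pairs and G in the let-7f pair. Whether this base affected on which copy reads were placed was not tested.

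**Figure D3:**
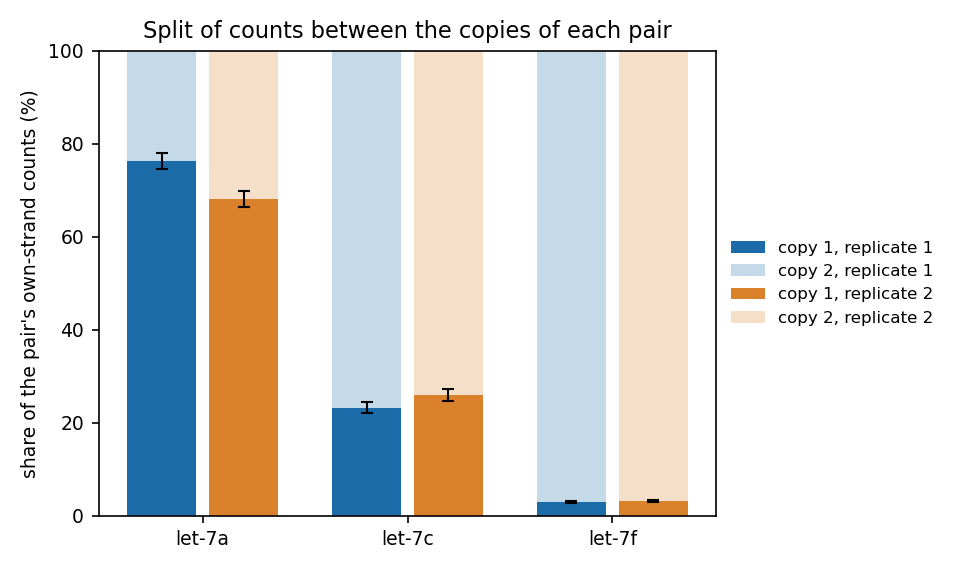
Share of each pair's own-strand counts (percent) on copy 1 (dark) and copy 2 (light) in replicate 1 (blue) and replicate 2 (orange), with 95% exact counting intervals. Copy 2 holds nearly all counts of let-7f and most of let-7c, copy 1 most of let-7a.

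Mirlet7f-1 carried 594 and 516 reads on its own strand and 0 on the opposite strand. The annotated microRNA gene Gm24111 covers it on the other strand and had 0 own-strand counts in both libraries, and in the column that ignores strand neither gene received a count. The low level of Mirlet7f-1 is thus taken from the strand-specific column. The other 5 genes also had 0 opposite-strand counts and held the same counts in both columns.

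Each member lies near another microRNA gene, and genes of such clusters can share a primary transcript. On chromosome 13, Mirlet7d, at a distance of 2064 bases from Mirlet7a-1, had 76.9 counts for each count of Mirlet7a-1 in replicate 1 and 82.7 in replicate 2. Mirlet7b, 621 bases from Mirlet7c-2, had 43.1 and 38.9 counts for each of Mirlet7c-2. On chromosome X the order was the opposite: Mir98, 785 bases from Mirlet7f-2, had 0.408 and 0.364 counts for each of Mirlet7f-2. Mirlet7f-2 was thus the only member with more counts than the nearest let-7 gene with 1 locus, among the 4 members that have one in their cluster. The 5p arm has 2 places for each member but 1 for Mirlet7d, Mirlet7b and Mir98. Reads with several places were counted for no gene, so the ratios do not give the relative output of the genes. These 3 ratios, and that of Mirlet7d to Mirlet7f-1, changed by at most 1.29-fold between the libraries (Fisher's exact test, two-sided, adjusted over 9 pairs of neighbours, largest p = 0.032).

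Of the 4 neighbours outside the family, 3 changed their ratio to the member by more than 1.5-fold, and Mir100 did not. Mir125b-1 and Mir125b-2 are by their symbols numbered copies, so reads of an arm they share would be counted for neither. Mir99a and Mir100 carry no copy number, and the counts of these neighbours may not measure the same thing. Mir99a, 656 bases from Mirlet7c-1, had 41.7 counts for each count of Mirlet7c-1 in replicate 1 and 86.7 in replicate 2, a change of 2.08-fold (same exact test, adjusted p = 6.8e-63). Mir125b-2, 46522 bases from Mirlet7c-1, moved the other way, from 0.431 to 0.236 counts (adjusted p of the exact test, 1.1e-11). For Mirlet7a-2 the 2 neighbours also went apart: Mir100, 5211 bases away, had 14.6 and 17.4 counts for each count of Mirlet7a-2 (exact test, adjusted p = 0.0026), and Mir125b-1, 45114 bases away, had 1.08 and 0.398 (exact test, adjusted p = 3.5e-31). The genes of the chromosome 9 and chromosome 16 clusters therefore did not keep 1 ratio between the libraries. By the same test the let-7 ratios above also differed, by at most 1.29-fold. Over all genes tested, 36.6% differed in level by 1.5-fold or more between the libraries and passed the exact binomial test. This share is of single genes, and no such share was computed for ratios between genes.

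Between the libraries, 5 of the 6 genes differed beyond counting error, against 61.1% of the 306 genes tested (two-sided exact binomial test given library totals, Benjamini-Hochberg adjusted p under 0.05). With 6 genes, nothing particular to the members is read from this share. No member passed it with a ratio of 1.5-fold or more, as 36.6% of the genes tested did. With TMM or DESeq2 factors 1 did, Mirlet7a-2. The DESeq2 factors were 1 in both libraries, so that setting compared raw counts without scaling. By library totals Mirlet7a-2 was 1.38-fold higher in replicate 2 (interval 1.24 to 1.53, adjusted p = 8.1e-09 by the exact test). This was the only member higher there, against 19.6% of genes tested. Mirlet7f-2 was 1.36-fold lower in replicate 2 (1.33 to 1.39), Mirlet7f-1 1.32-fold (1.17 to 1.48) and Mirlet7c-2 1.23-fold (1.17 to 1.29). Their adjusted p by the exact binomial test was at most 1.3e-05, and 41.5% of genes tested were lower. Mirlet7a-1 was 1.10-fold lower (1.03 to 1.17, adjusted p = 0.0099 by the exact test), a direction that reversed with TMM or DESeq2 factors. Mirlet7c-1 did not pass the exact test (log2 ratio -0.09, adjusted p = 0.228), and its sign reversed with the same factors.

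The median log2 ratio was -0.22 over the 6 members, -0.45 over the 7 detected let-7 genes with 1 locus and -0.19 over all genes tested, with an SD of 0.83 over all. The shift of the median gene matters for the small differences. Relative to TMM factors, which moved the median gene to -0.02, Mirlet7a-1 stood at 0.040 and Mirlet7c-1 at 0.088 on the log2 scale, both reversed in sign and neither past the test (adjusted p = 0.515 and 0.216, exact binomial). Mirlet7a-2 stayed higher (0.64) and Mirlet7c-2, Mirlet7f-1 and Mirlet7f-2 stayed lower (-0.13, -0.22 and -0.27). Over all genes 60 were higher and 127 lower by library totals, and 92 and 88 with TMM factors. Mir451a, a red cell microRNA, took up 0.782% of the sum of counts in replicate 1 but 8.68% in replicate 2. With Mir451a left out of the library totals, Mirlet7a-1 stood at -0.01 (adjusted p = 0.825, exact binomial) and Mirlet7c-1 at 0.033, and the other 4 kept their direction and their call.

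In level over both libraries, the genes nearest to each member by distance of log2 CPM belonged to other families. Mir10b and Mir181d were nearest to Mirlet7a-1 (distances 0.09 and 0.14), and Mir541 and Mir339 to Mirlet7a-2 (0.27 and 0.42). Mir181b-2 and Mir411 were nearest to Mirlet7c-1 (0.13 and 0.31), Mir25 and Mir361 to Mirlet7c-2 (0.15 and 0.23), Mir18 and Mir1306 to Mirlet7f-1 (0.11 and 0.14) and Mir151 and Mir29a to Mirlet7f-2 (0.21 and 0.39). With 2 libraries this likeness means a similar count in both and nothing more.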

How the data were processed

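The tables deposited by the authors hold raw read counts for each microRNA gene in 2 heart libraries, without normalization. The assembly is mm10, per the labels, and the annotation GENCODE M21, per the text beside each table. How reads were trimmed, aligned and counted is not given in the sources. The 3 count columns have no header and were identified from their values as either strand, own strand and opposite strand. The first 4 lines name no gene; in the own-strand column they held 70.0% and 65.3% of the reads, and they were left out of totals and tests. All 2202 identifiers matched M21.

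CPM values are own-strand counts scaled to the sum over microRNA genes. For each gene the libraries were compared by an exact binomial test (two-sided, given these sums), adjusted by Benjamini-Hochberg over genes with at least 10 counts in both, at 0.05. The test was checked on simulated counts that held counting error alone. That check cannot show how the test behaves where the spread is wider. The copies of a pair, and neighbours in a cluster, were compared by Fisher's exact test. The cluster comparison was added after values were seen. A chi-square test over 682 genes gave 510 per degree of freedom, so the 2 tables are separate libraries. Whether the libraries are separate animals is not certain, so p-values measure the difference of 2 libraries, which may be technical. Hairpins were taken from M21 transcripts and arms from RefSeq, whose hairpins were identical for all 6 genes. Intervals are Clopper-Pearson at 95%, and a count of 0 was read as up to 3 counts. The genes named are the 6 members, the other let-7 genes, the members' cluster neighbours and the tissue markers. Named too are the 2 detected genes nearest to each member in log2 CPM, with the 6 members left out of that search. Mir451a, in its part in the totals, and Mir3074-1 were named after their values were seen. Members and lists were chosen with earlier results of these data known. Alternatives were other scalings, filters, denominators, strand columns, window lengths and each replicate alone. TMM factors came from edgeR 4.0.16 and size factors from DESeq2 1.42.0 (R 4.3.3). The DESeq2 size factors were 1 in both libraries, so tests with them used raw counts. Tests were run with scipy 1.17.1 in Python 3.11.15.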

Additional observations from a re-analysis of the deposited data

Results flagged for a closer look

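Outside the gene counts, 3992614 reads in replicate 1 and 3410568 in replicate 2 mapped to several places and were given to no gene. Each 5p arm of the 6 genes has 2 places among the annotated hairpins. How many of these reads carried a let-7a, let-7c or let-7f arm was not tested, since the tables give them as 1 sum per library.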

How the results depend on the processing

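The share of counts held by the 6 genes, 0.983%, became 1.28% with counts on either strand, 0.315% of all reads, 0.402% of microRNA counts plus reads mapped to several places, and 0.296% without Mirlet7f-2; each replicate alone gave 0.861 to 1.10%. With counts on either strand 5 of the 6 genes were detected, since Mirlet7f-1 has none there, and 3 differed between libraries in place of 5. TMM factors, DESeq2 factors (1 in both libraries, so raw counts) and totals without Mir451a each left 4. The log2 ratio of Mirlet7a-1 reversed to 0.040 with TMM factors, 0.058 with DESeq2 factors and 0.015 with either-strand counts. That of Mirlet7c-1 reversed to 0.088, 0.11 and 0.063 in the same order, and to 0.033 without Mir451a. DESeq2 factors gave 94 genes higher and 87 lower over all genes, either-strand counts 71 and 87, and totals without Mir451a 76 and 103. With windows of 18 bases the share with 1 place was 72.7% in Mirlet7a-1, 78.2% in Mirlet7c-2 and 87.9% in Mirlet7f-2, which then lay below Mirlet7c-1 (88.3%), Mirlet7a-2 (88.6%) and Mirlet7f-1 (88.9%). With 22 bases it was 97.3% in Mirlet7a-2, 97.3% in Mirlet7c-1 and 98.5% in Mirlet7f-1. The log2 ratio of copies by replicate ran from 1.09 to 1.69 (let-7a), -1.73 to -1.51 (let-7c) and -5.01 to -4.97 (let-7f), and could not be given for let-7f on either strand. The scaling without Mir451a, the share without Mirlet7f-2 and the order per base of hairpin were chosen after seeing the data. No paired analysis was possible because there is 1 group.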
